A study of Mus musculus with 20 samples.

Results

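MAZ is a zinc finger protein that binds G-rich DNA, mainly at promoters, and that has been described as a partner of CTCF at the borders of chromatin domains. CTCF is the sequence-specific factor at which cohesin, the ring complex that extrudes DNA loops, is held on vertebrate chromosomes. SP and KLF proteins are zinc finger factors of a related kind that bind GC boxes, so promoters rich in G and C can carry words for several of these factors at once. The members described here are the MAZ peaks of untreated mouse embryonic stem cells (WT) and of the same cells after auxin (ΔCTCF), 13024 peaks of the 136043 in the 12 deposited peak lists of the series. A peak was counted as shared when it overlapped a peak of the other MAZ list by at least 1 bp, and as WT-only or ΔCTCF-only otherwise.

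Both groups were E14 mouse embryonic stem cells of the CTCF-AID line, in which CTCF carries a degron, grown with LIF and 2i. WT cells were untreated and ΔCTCF cells had 2 days of auxin, which has the tagged protein degraded, so "WT" here still means a cell with a tagged CTCF. Each group had 2 MAZ samples, and the peak list of 1 of them, labelled replicate 2, was analysed here. The lists came from chromatin immunoprecipitation with sequencing (ChIP-seq). With 1 list per group, differences below lack a check by replicates, p-values are left out, and the 95% intervals cover counting error only. A Maz knockout clone (B2) of the same line, untreated and with 2 days of auxin, served as a control for the antibody. The lists hold positions and no expression, so the labelled cell type could not be checked against its markers.

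The degradation was visible in the CTCF lists, which held 26394 peaks in WT and 2381 after auxin. The Maz knockout list held 33 MAZ peaks without auxin, overlapped by 5 MAZ peaks of WT and 16 of ΔCTCF, and 33 with auxin, overlapped by 4 and 15. The MAZ library of WT was 2.65 times as deep as that of ΔCTCF by a depth index, the lowest background of a list over its narrowest peak, although its list was the shorter one. The RAD21 library of ΔCTCF was 2.18 times as deep as that of WT. Fold enrichment, the read pileup at the summit over the local background with 1 added to each, is therefore ranked within each list, and a fold of WT and a fold of ΔCTCF are not on a common scale.

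The DNA under strong sites of each class shows what the antibody recovered. The windows below are the 101 bp around peak summits, on the forward strand of mm10 (GRCm38). The peaks were among the 8 strongest of each class outside the knockout lists, with no annotated UTR in the window. Capitals mark the MAZ core GGGAGGG, the GC box word of SP and KLF factors GGGCGGG and the CTCF words AGGGGGC and AGGTGGC, each on either strand, and words that touch run together. The first 5 windows are shared sites and carry the highest combined ranks of both lists.
Zbtb8a, chr4:129382076-129382176: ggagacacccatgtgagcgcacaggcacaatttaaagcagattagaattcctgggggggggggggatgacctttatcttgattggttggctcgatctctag
Kmt2a, chr9:44881399-44881499: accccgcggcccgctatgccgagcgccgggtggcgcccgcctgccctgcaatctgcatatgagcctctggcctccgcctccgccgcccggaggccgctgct
Ajuba, chr14:54575782-54575882: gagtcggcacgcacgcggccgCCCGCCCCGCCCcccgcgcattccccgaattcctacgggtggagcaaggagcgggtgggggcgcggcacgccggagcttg
Rcan1, chr16:92466169-92466269: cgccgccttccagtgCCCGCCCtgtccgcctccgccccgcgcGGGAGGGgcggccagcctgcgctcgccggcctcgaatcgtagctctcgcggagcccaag
Tgif2, chr2:156839865-156839965: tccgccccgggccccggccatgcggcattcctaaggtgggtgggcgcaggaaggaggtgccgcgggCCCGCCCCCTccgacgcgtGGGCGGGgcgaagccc
The next windows are WT-only sites, which had no peak of the other MAZ list within 500 bp. The last 2 of them were added, after their values were seen, as further WT-only sites at a CTCF peak.
Tmem29, chrX:150477915-150478015: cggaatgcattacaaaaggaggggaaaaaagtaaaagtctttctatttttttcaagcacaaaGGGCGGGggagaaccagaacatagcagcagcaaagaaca
Sik2, chr9:51009101-51009201: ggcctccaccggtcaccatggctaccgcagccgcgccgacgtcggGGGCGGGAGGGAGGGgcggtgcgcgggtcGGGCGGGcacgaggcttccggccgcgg
Ankrd13b, chr11:77491284-77491384: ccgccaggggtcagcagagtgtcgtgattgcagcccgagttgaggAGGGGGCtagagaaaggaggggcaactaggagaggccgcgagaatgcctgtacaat
Lgals1, chr15:78928244-78928344: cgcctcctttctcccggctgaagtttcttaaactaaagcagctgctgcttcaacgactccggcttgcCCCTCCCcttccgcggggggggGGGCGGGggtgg
Abca2, chr2:25428483-25428583: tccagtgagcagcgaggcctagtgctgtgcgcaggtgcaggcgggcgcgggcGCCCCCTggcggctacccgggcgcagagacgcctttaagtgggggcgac
Ppp6r2, chr15:89211364-89211464: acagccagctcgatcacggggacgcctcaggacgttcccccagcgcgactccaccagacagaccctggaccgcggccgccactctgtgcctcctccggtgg
The last windows are 3 of the strong ΔCTCF-only sites, which had no peak of the WT list within 500 bp.
Tcp10a, chr17:7262242-7262342: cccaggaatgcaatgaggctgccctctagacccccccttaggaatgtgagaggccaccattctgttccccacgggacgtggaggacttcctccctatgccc
Psmd12, chr11:107479287-107479387: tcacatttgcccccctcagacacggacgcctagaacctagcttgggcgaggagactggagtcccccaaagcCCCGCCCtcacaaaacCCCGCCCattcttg
Fblim1, chr4:141570107-141570207: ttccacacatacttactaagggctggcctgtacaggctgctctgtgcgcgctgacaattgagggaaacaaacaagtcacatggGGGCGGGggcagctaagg
GC content ran from 41.6% at the site near Tmem29 to 81.2% at Sik2. The MAZ core was in 3 of the 14 windows, namely Rcan1, Sik2, where 2 cores overlap, and Lgals1. At the Zbtb8a site, the strongest MAZ peak after auxin, no word was present but a run of 13 G lay beside the summit. A CTCF word was in the windows of Tgif2, Ankrd13b and Abca2, and the last 2 of these lie at CTCF peaks. A word is a match of letters and was not tested as a binding site.

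The 8 strongest shared sites outside the knockout lists had fold enrichments from 20.9 to 31.2 in WT and from 23.8 to 42.2 in ΔCTCF. The peak 153 bp upstream of the start of Kmt2a, which encodes a histone H3 lysine 4 methyltransferase, was first of 6265 in WT with a fold of 31.2 and ranked 5 of 6759 in ΔCTCF with 34.1 (chromosome 9, 44881087 to 44881859). It was the only one of the 8 at a CTCF peak of WT. The first peak of ΔCTCF lay 4010 bp upstream of Zbtb8a, with a fold of 42.2 there and 27.8 in WT, where it ranked 4 (chromosome 4, 129381921 to 129382365). Promoter sites in this group were those of Rcan1, an inhibitor of calcineurin (26.6 in WT and 31.3 in ΔCTCF), Tgif2, a homeodomain repressor of TGF-beta signalling (22.1 and 38.1), Ccdc85c (29.6 and 23.8) and Trim62 (23.4 and 25). The site in an intron of Ajuba, a LIM domain protein, had 23.4 and 32.1, and the intergenic site 57459 bp upstream of Arid1a, which encodes a subunit of the BAF remodeller, had 20.9 and 28.5. The 8 sites were chosen by their ranks in both lists, so their high folds in both are a description.

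Of the 6265 MAZ peaks of WT, 4152 were called in ΔCTCF (66.3%, interval 65.1 to 67.4) and 2113 were WT-only. Of the 6759 peaks of ΔCTCF, 4162 were called in WT (61.6%, 60.4 to 62.7) and 2597 were ΔCTCF-only. Over the 8862 sites of either list, 23.8% were WT-only and 29.3% were ΔCTCF-only, and these shares are the background for the counts below. Which list had the larger unshared part depended on the threshold. With a −log10 q of 5 or more in both lists 62.8% of 5213 WT peaks and 64.8% of 5058 ΔCTCF peaks were called in the other list, and with the 4000 strongest peaks of each 61.8% and 62%. Unshared peaks were the weaker ones of each list. In WT the median fold was 5.52 at shared and 4.50 at WT-only peaks, and in ΔCTCF it was 6.65 and 5.34. In the WT list a −log10 q of at least 10 was reached by 55.0% of shared and 17.7% of WT-only peaks. In the ΔCTCF list it was reached by 40.6% of shared and 6.74% of ΔCTCF-only peaks. The −log10 q rises with depth, so these shares are read within a list. A peak of the other list lay within 500 bp of 10.5% of WT-only and 9.47% of ΔCTCF-only peaks.

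The share called in the other list was higher in each stronger group, in both directions. With each list divided into 5 equal groups by fold, the share of WT peaks called in ΔCTCF was 45.3% in the weakest group, then 50.4%, 64.7% and 76.9%, and 94.0% (92.6 to 95.2) in the strongest. The share of ΔCTCF peaks called in WT was 35.7%, 43.8%, 58.6%, 75.4% and 94.4% (93.1 to 95.5) in the same order. Each strongest group, of 1253 and 1351 peaks, held 75 unshared ones. When pileup and background of WT were scaled down by a factor of 0.377 to the depth of ΔCTCF, 5153 WT peaks still passed the lowest −log10 p of the ΔCTCF list, 4.14. Of the WT-only peaks 69.4% (67.4 to 71.3) stayed callable in this way, as did 88.8% of the shared peaks.

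With CTCF degraded in one of the 2 groups, the comparison asks whether MAZ peaks that lay with CTCF were called as often afterwards as other MAZ peaks. In WT 481 MAZ peaks overlapped a CTCF peak of WT, and they were called in ΔCTCF less often than the others, 56.5% (52.1 to 60.9) against 67.1% (65.9 to 68.3). The difference was −10.5 percentage points (−15.2 to −6.0). It had the same sign in all 5 strength groups. From weakest to strongest the shares with a CTCF peak were 37.6%, 36.3%, 57.8%, 65.1% and 80.6%, and those without were 45.9%, 51.5%, 65.2%, 78.0% and 95.3%. The interval of the difference left out 0 in groups 2, 4 and 5, counted from the weakest. Pooled over the 5 groups and over promoter and distal sites, the odds ratio of being called, CTCF sites over other sites, was 0.552 (0.448 to 0.679).

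**Figure D1:**
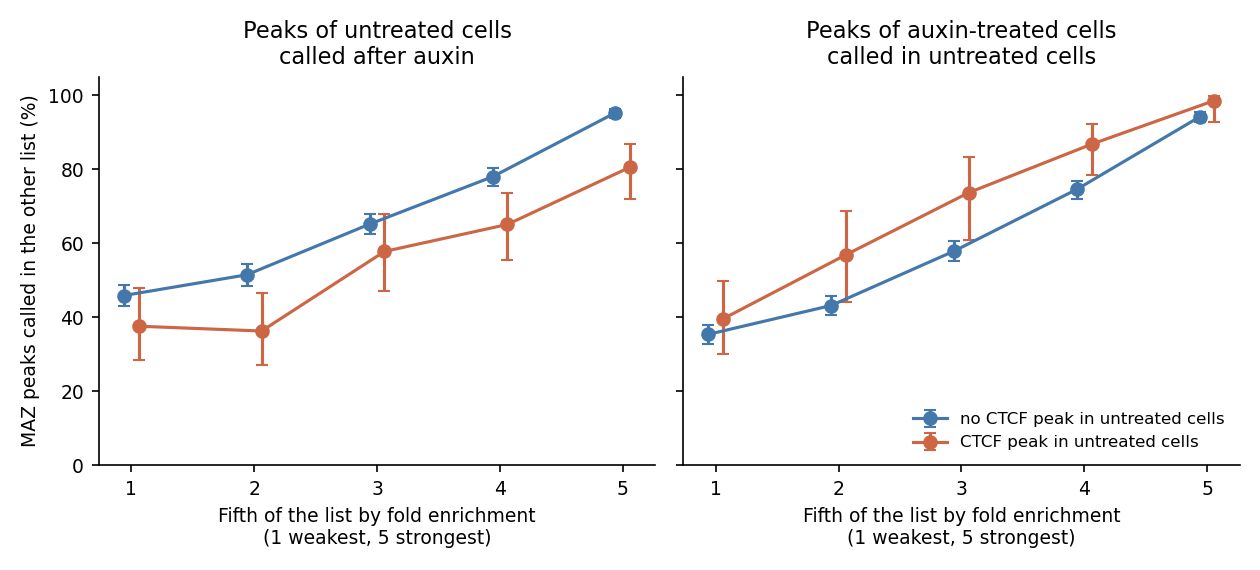
Share of MAZ peaks called in the other list (%, vertical axis) by strength group of the list the peaks come from (horizontal axis, 1 weakest to 5 strongest), for peaks with and without a CTCF peak of WT, with 95% Wilson intervals. In the left panel, peaks of WT, the CTCF points lie below the others in all 5 groups (80.6% against 95.3% in the strongest). In the right panel, peaks of ΔCTCF, they lie above (98.6% against 94.2%).

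Counted from the ΔCTCF list the sign was the opposite. Of the 371 MAZ peaks of ΔCTCF at a place where WT had a CTCF peak, 70.9% (66.1 to 75.3) were also called in WT, against 61% (59.8 to 62.2) of the others. In the strongest group 73 of 74 were called in WT. A CTCF peak lay at 9.89% of WT-only sites, 6.55% of shared sites and 4.16% of ΔCTCF-only sites. WT-only exceeded shared by 3.34 points (1.9 to 4.86), and ΔCTCF-only minus WT-only was −5.73 points (−7.25 to −4.27). Among the 75 WT-only peaks of the strongest group, 21 (28.0%, 19.1 to 39.0) overlapped a CTCF peak, against 7.39% of the shared peaks of that group. Among the 75 ΔCTCF-only peaks of the strongest group 1 did.

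Counted from the WT list the contrast had the same sign at promoters and away from them. At promoters, summits within 1 kb of a transcription start site (TSS), 60.7% of the 364 WT peaks with CTCF and 70.6% of the 4435 without were called in ΔCTCF. At distal sites it was 43.6% of 117 and 55.5% of 1349. Counted from the ΔCTCF list, peaks with CTCF exceeded those without by 9.33 points at promoters (3.9 to 14.1) and by 8.02 points at distal sites, where the interval includes 0 (−2.67 to 18.5). WT peaks that overlapped a RAD21 peak of WT but no CTCF peak were called in ΔCTCF in 70.8% of 226 cases (64.6 to 76.3), and in 48 of 48 in the strongest group. Peaks with both CTCF and RAD21 were called in 53.9% of 295 cases, and peaks with CTCF alone in 60.8% of 186, a difference of −6.85 points whose interval (−15.7 to 2.24) includes 0.

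Among MAZ peaks with CTCF, those whose summit was close to the CTCF summit were called least. With summits at most 50 bp apart 46.1% of 141 peaks were called in ΔCTCF (38.1 to 54.3), with 51 to 150 bp 53.9% of 167 (46.3 to 61.3), and farther apart 67.6% of 173 (60.3 to 74.2). The last share was close to the 67.1% of MAZ peaks without CTCF. The median MAZ fold of these groups was 4.87, 5.32 and 5.32, so the closest pairs were also somewhat weaker MAZ peaks. Where the CTCF peak had more than the list's median fold of 13.3, 53.3% of 330 MAZ peaks were called, and 63.6% of 151 where it had less, with intervals that overlap (47.9 to 58.6 and 55.7 to 70.8). The MAZ core was in 26.1% of the 272 shared and 23.0% of the 209 WT-only windows at CTCF peaks, and a CTCF word in 27.6% and 26.3%. At these sites the share that kept a CTCF peak after auxin was 16.2% for shared and 17.7% for WT-only sites.

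Most of the MAZ peaks of the Maz knockout also lay at CTCF sites. Of the 33 peaks of the untreated knockout and the 33 of the auxin-treated one, 21 and 28 overlapped a CTCF peak of WT. With the regions of the knockout lists left out, 56.2% of WT peaks with and 67.0% without CTCF were called in ΔCTCF. With WT scaled to the depth of ΔCTCF the shares were 61.3% and 72.4%, with both lists held to a −log10 q of 5 or more 52.4% and 63.7%, and with the 4000 strongest peaks of each list 52.1% and 62.6%. These settings were applied to this contrast after its values were seen.

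Of the 8 strongest WT-only peaks with no ΔCTCF peak within 500 bp, 5 overlapped both a CTCF and a RAD21 peak of WT. They lay 18815 bp upstream of Tmem29 on the X chromosome (fold 12.5, rank 101 of 6265, 150477801 to 150478141), 78 bp upstream of Sik2, a salt-inducible kinase (11.7, chromosome 9, 51008756 to 51009346), in an exon of an annotated transcript 1656 bp upstream of Ankrd13b (11.5, chromosome 11, 77491138 to 77491531), 6 bp upstream of Pxn, the focal adhesion protein paxillin (11.0, chromosome 5, 115506431 to 115506867) and 170 bp upstream of Abca2, a lipid transporter (9.82, chromosome 2, 25428386 to 25428840). All 5 overlapped a RAD21 peak of ΔCTCF as well. The other 3 had no CTCF peak. They were an intronic site 1569 bp into Lgals1, which encodes a galectin (10.8), the promoter of Srp72, a protein of the signal recognition particle (10.8), and the promoter of Otx1, a homeodomain factor of the developing forebrain (9.82). Peaks at a peak of the knockout lists were left out, 0 of the WT-only and 13 of the ΔCTCF-only ones. The 8 strongest of the remaining ΔCTCF-only peaks with no WT peak within 500 bp overlapped no CTCF peak of WT. Of these, 2 were promoters, namely those of Psmd12, a subunit of the proteasome lid (fold 12, rank 294 of 6759), and Ipo9, an importin (9.67). The others were distal, with the nearest protein-coding start between 28067 bp (Fblim1) and 137988 bp (Gramd3) away, the strongest being an intronic site 62354 bp upstream of Tcp10a on chromosome 17 (12.4, rank 261, 7262077 to 7262422). The distal sites nearest to Fam161a and Cap2 had folds of 9.67 and 9.29.

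MAZ sites of all classes were mostly promoter sites, but less so where they were unshared. A summit within 1 kb of a TSS was found for 80.7% of shared sites (79.5 to 81.9), 68.5% of WT-only sites (66.5 to 70.4) and 61.7% of ΔCTCF-only sites (59.8 to 63.5). ΔCTCF-only minus WT-only was −6.79 points (−9.5 to −4.06). Summits more than 10000 bp from any TSS made up 7.95%, 14.4% and 19.7%. Introns held 8.62%, 14.3% and 17.9%, and intergenic sequence 9.49%, 14.6% and 17.4%. Promoter summits were close to the start, with a median distance of 81.0 bp at shared, 98.0 bp at WT-only and 106 bp at ΔCTCF-only sites, and 65.9%, 57.1% and 53.1% of them lay upstream of it. Protein-coding starts on both strands within 1 kb were found for 7.92% of shared, 5.02% of WT-only and 5.24% of ΔCTCF-only sites.

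The promoter contrast was also present among peaks of like strength. Within each strength group of WT, promoter peaks were called in ΔCTCF more often than distal ones, with a pooled odds ratio of 1.63 (1.43 to 1.85). In the strongest group the difference was 3.12 points, with an interval that includes 0 (−0.475 to 8.21). Counted from the ΔCTCF list the pooled odds ratio was 2.37 (2.09 to 2.68). Distal ΔCTCF peaks were called in WT in 44.7% of 1799 cases and promoter peaks in 67.7% of 4960. Chromosome X held 0.819% of shared, 0.994% of WT-only and 1.66% of ΔCTCF-only sites, in all 55 peaks in WT and 77 in ΔCTCF. The share of WT peaks called in ΔCTCF ran from 61.7% (chromosome 16) to 71.9% (chromosome 17) over the chromosomes, and 1 ΔCTCF-only peak lay on the mitochondrial genome.

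**Figure D2:**
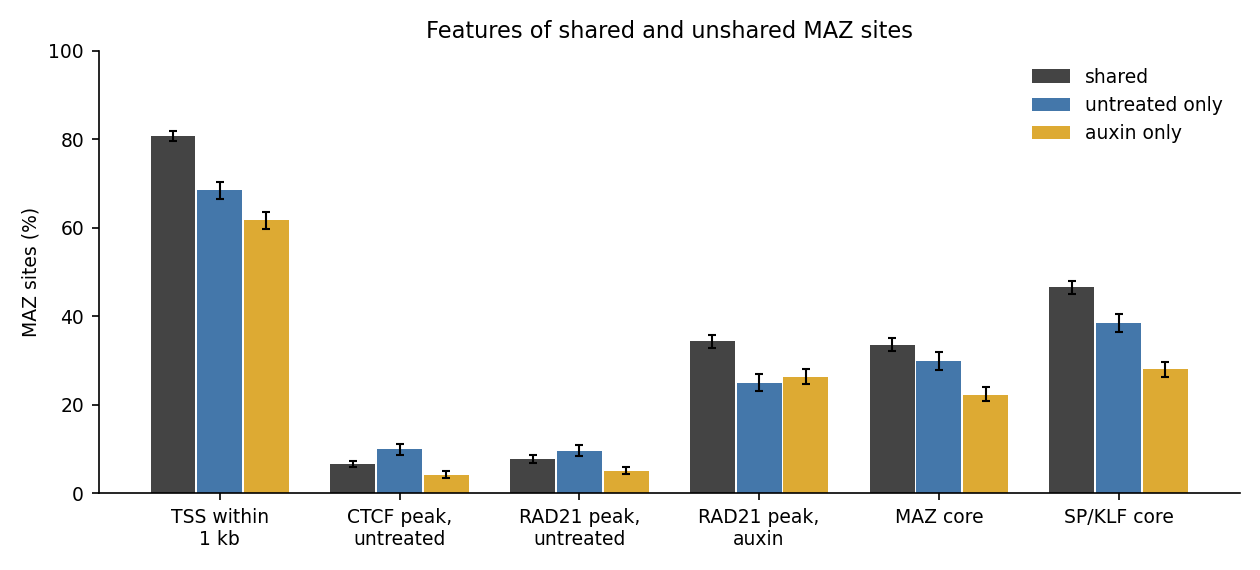
Share of MAZ sites (%, vertical axis) with each feature for shared sites (4152, WT coordinates), sites called only in WT (2113) and sites called only in ΔCTCF (2597), with 95% Wilson intervals. Promoter share and both core words fall from shared to untreated-only to auxin-only sites, while the CTCF and RAD21 peaks of untreated cells are most frequent at untreated-only sites (9.89% and 9.56%).

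The DNA of the classes differed in the same order as their promoter share. The MAZ core lay within 50 bp of the summit at 33.6% of shared (32.2 to 35.0), 29.8% of WT-only (27.9 to 31.8) and 22.3% of ΔCTCF-only sites (20.8 to 24.0). Windows of the same length 300 bp to either side held it in 9.85%, 8.83% and 7.70% of cases, so the core was 3.41, 3.37 and 2.90 times as frequent at the summit as beside it. The GC box word was more frequent still, at 46.5%, 38.4% and 28.0% of summits, or 4.05, 3.92 and 3.84 times its frequency beside them. Either word was at 65.6% of shared, 57.2% of WT-only and 45.2% of ΔCTCF-only summits. The difference, ΔCTCF-only minus WT-only, was −7.43 points for the MAZ core (−9.96 to −4.91) and −10.5 points for the GC box word (−13.2 to −7.77). The values for shared sites are those of WT summits. At ΔCTCF summits of shared sites the MAZ core was at 31.8% and the GC box word at 42.2%. Within the ΔCTCF list, ΔCTCF-only minus shared was −9.5 points (−11.6 to −7.35) and −14.2 points (−16.5 to −11.9). A part of library depth in these differences was not tested. The order of the classes was the same at promoters and away from them. At promoters the MAZ core was at 32.2%, 27.1% and 18.0% and at distal sites at 39.2%, 35.6% and 29.3%.

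The GC content of the windows had medians of 71.3% at shared, 69.3% at WT-only and 64.4% at ΔCTCF-only sites. At promoters alone the medians were 72.3%, 72.3% and 68.3%. The ratio of observed to expected CpG was 0.804, 0.743 and 0.645. GC content moves with the calls and its part in them was not tested. Words of other promoter factors were rarer. The ETS word CCGGAAG was at 6.14%, 5.16% and 4.51% of summits, or 3.33, 2.91 and 2.72 times its frequency beside them. The NRF1 word GCATGCG was at 2.12%, 1.80% and 1.69%, with ratios of 2.41, 2.45 and 2.38. The NFY word AGCCAAT was at 3.2% (2.71 to 3.78), 1.85% (1.35 to 2.51) and 3.00%, with ratios of 2.49, 1.44 and 2.74. The OCT4 word ATGCAAA was at 0.867%, 1.14% and 1.23%, no more often than beside the summits (1.04%, 1.21% and 1.12%, respectively) apart from the last, and the ESRRB word AAGGTCA at 1.04%, 1.80% and 1.5%. The YY1 word ATGGCGG was at 2.29%, 2.46% and 1.73%, and the E-box CACGTG at 4.24% (3.67 to 4.9), 2.79% (2.17 to 3.58) and 3.39%. The NFY word and the E-box were thus less frequent at WT-only than at shared summits, with intervals that do not overlap. A CTCF word was at 17.3% of shared (16.1 to 18.4), 14.9% of WT-only (13.5 to 16.5) and 10.4% of ΔCTCF-only summits (9.24 to 11.6), an order in which shared sites come first, while CTCF peaks were most frequent at WT-only sites.

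**Figure D3:**
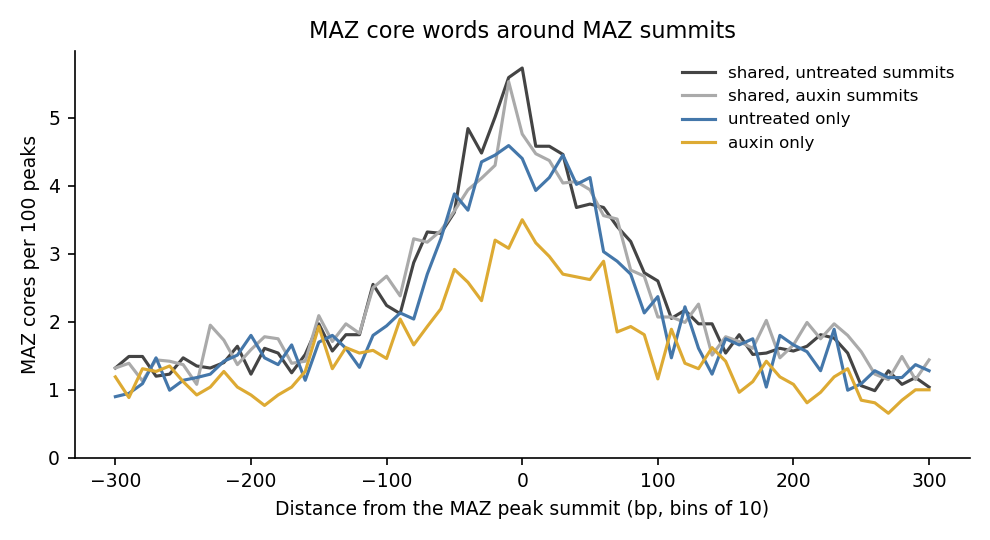
MAZ core words per 100 peaks in bins of 10 bp (vertical axis) by distance from the peak summit (bp, horizontal axis), for the classes named in the key. All 4 curves have their highest bin at the summit or 10 bp from it, with 5.73 words per 100 peaks in the central bin for shared sites of the WT list, 4.40 for WT-only and 3.50 for ΔCTCF-only sites.

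Whether a peak carried the core said little about whether WT peaks were called after auxin once strength was held. Of WT peaks with the core 68.9% were called in ΔCTCF and of those without 65.0%, but the odds ratio pooled over strength groups was 0.950 (0.840 to 1.08), an interval that includes 1. From the ΔCTCF list the share called in WT was 69.6% with and 58.4% without the core, and the pooled odds ratio was 1.34 (1.19 to 1.52). From the weakest to the strongest group of ΔCTCF the difference, with minus without the core, was 14.2, 6.98, 3.86, 2.69 and 2.05 points, and the interval included 0 in the last 3.

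At shared sites the 4152 WT peaks were paired with the ΔCTCF peak of nearest summit. Summits of a pair were a median of 46.0 bp apart, and 53.3% lay within 50 bp. The ratio of the deposited folds, ΔCTCF over WT, had a median log2 of 0.28 with an SD of 0.41 over pairs. The median depends on the scale, since recovering the pileup and dividing it by the background without a pseudocount moved it to 0.61. The SD of that second ratio was 0.40, and the reads under the summits alone give an SD of 0.43 by counting error. Sites called in one list alone are not among the pairs, so these values do not show that MAZ levels were alike at shared sites. Of the shared sites 0.915% (38) were at least 1 log2 unit above the median ratio and 0.795% (33) at least 1 unit below it. At the 272 shared sites with a CTCF peak the counts were 4 and 7, or 1.47% and 2.57%. Their median ratio differed from that of all shared sites by −0.07 log2 units, with quartiles of −0.36 and 0.26. At the 3880 shared sites without CTCF the quartiles were −0.27 and 0.28, with 0.876% of sites at least 1 unit above the median and 0.67% at least 1 unit below. These are sites called in both lists, so CTCF sites without a call in ΔCTCF are not among them. Promoter and distal sites had medians of 0.28 and 0.29. Spearman's rho of the folds over the pairs was 0.55, as a description over sites of a single pair of libraries.

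**Figure D4:**
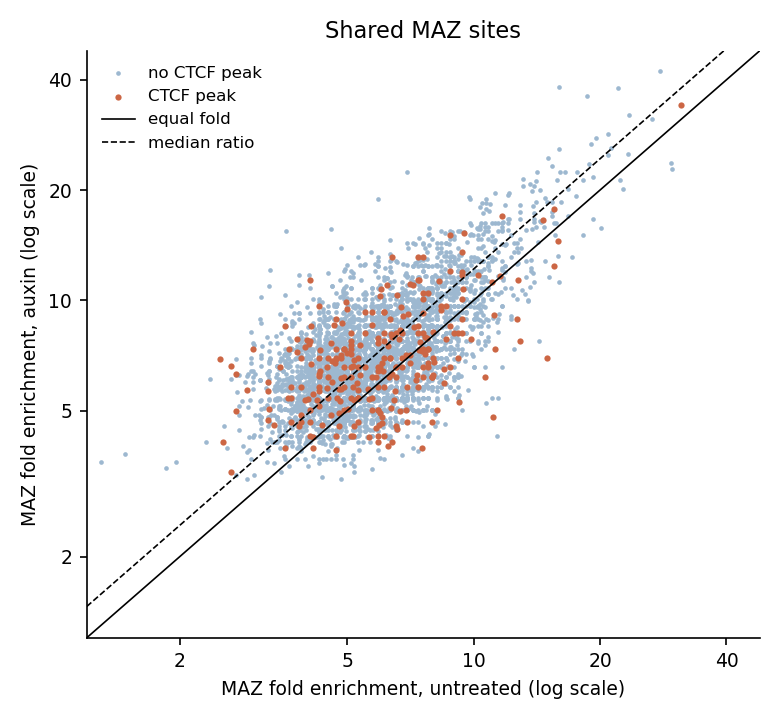
Fold enrichment of the 4152 shared MAZ sites in WT (horizontal axis, log scale) and ΔCTCF (vertical axis, log scale), each point a site, with sites at a CTCF peak of WT in red. The dashed line is the median ratio (0.28 on the log2 scale). Of sites with CTCF 2.57% lie at least 1 log2 unit below the line, and of sites without it 0.67%.

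Among the 1908 shared sites above the median fold of both lists, the 5 that ranked highest in ΔCTCF relative to their WT rank were the promoters of Fam222a, Plbd2 and Srsf10, a splicing factor, and sites 6804 bp upstream of Cdk1, the mitotic kinase, and 7840 bp upstream of Glis2. The Cdk1 site had rank 2678 in WT (fold 5.32) and rank 194 in ΔCTCF (13.2), and Srsf10 had 2546 (5.48) and 256 (12.5). None of the 5 overlapped a CTCF peak. The 5 that ranked lowest in ΔCTCF relative to WT were the promoters of Chd6, Sptbn4, Sp4 and Sirt1 and an exonic site 21948 bp upstream of Carmil2. The Carmil2 site, which overlapped CTCF and RAD21 peaks of WT, had rank 206 (10.6) and 2894 (6.19). Sirt1, a deacetylase gene, had 551 (8.58) and 3164 (6.17), and Sp4, a member of the SP family, 576 (8.39) and 3257 (6.05). These 10 sites were picked for the difference between their ranks, from lists of unequal length and depth, and are a description. Measured from the median log2 ratio of all shared sites, the first 5 lay 0.88 to 1.02 units above it and the others between −1.06 and −0.75, so that 8 of the 10 were within 1 unit.

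RAD21 peaks before and after auxin sorted the classes in different ways. In WT a RAD21 peak lay at 7.68% of shared, 9.56% of WT-only and 5.08% of ΔCTCF-only sites. In ΔCTCF it lay at 34.3% of shared sites (32.9 to 35.8), 25% of WT-only sites (23.2 to 26.9) and 26.3% of ΔCTCF-only sites (24.7 to 28.1). With the deeper RAD21 list of ΔCTCF scaled to the depth of WT the last 3 shares were 26.7%, 20.1% and 20.3%. Shared sites therefore had RAD21 after auxin more often than either unshared class, while ΔCTCF-only and WT-only sites differed by 1.30 points with an interval that includes 0 (−1.21 to 3.8). RAD21 in ΔCTCF but not in WT was seen at 28.3% of shared, 17.9% of WT-only and 22.8% of ΔCTCF-only sites, and here ΔCTCF-only exceeded WT-only by 4.82 points (2.51 to 7.10).

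Away from CTCF the change was seen at promoters and at distal sites. At shared promoter sites with no CTCF peak the share with RAD21 was 3.51% of 3131 in WT and 31.1% in ΔCTCF, and at WT-only promoter sites 1.92% of 1304 and 19.0%. At shared distal sites with no CTCF peak it was 6.68% of 749 in WT and 39.0% in ΔCTCF. At MAZ sites with CTCF it was 58.5% of 272 before and 58.5% after auxin for shared sites, and 65.1% of 209 and 52.6% for WT-only sites. In the Maz knockout with auxin, whose RAD21 list held 6400 peaks, 10.7% of shared and 7.05% of WT-only sites had RAD21, and in the untreated knockout 11.2% and 13.1%. Stronger MAZ peaks of ΔCTCF more often overlapped a RAD21 peak of ΔCTCF, from 24.8% in the weakest group to 39.7% in the strongest, while the share with a RAD21 peak of WT lay between 5.25% and 7.69% with no such order. Shared sites were also the stronger sites, and the part of strength in the contrast between classes was not tested.

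Counted by gene, MAZ promoter binding overlapped more than by peak. Of 21951 protein-coding genes 21.0% had a MAZ summit within 1 kb of a TSS in WT and 21.7% in ΔCTCF, 15.7% in both, 5.29% in WT alone and 6.06% in ΔCTCF alone. Of the 4599 genes of WT, 74.7% (73.5 to 76.0) also had a summit in ΔCTCF. The gene lists below are read against these shares. They hold few genes, so small differences in count are not distinguishable from counting error.

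Zinc finger genes that encode G-rich-binding factors were frequent targets. Of 25 such genes 19 had a MAZ summit in WT, 20 in ΔCTCF and 17 in both. Maz itself had a fold of 9.0 in WT and 13.2 in ΔCTCF, and Patz1, which encodes a related factor, had 7.58 and 13.2. Klf4 (14.9 and 18.6) and Klf10 (12.3 and 15.5) had the highest folds of the list in both groups. Sp3 came next in WT (11.6), but with 10.5 in ΔCTCF it stood below Maz, Patz1, Zfp219 and Sp2. Ctcf had a promoter peak 195 bp upstream of its start, with 10.8 in WT and 7.74 in ΔCTCF. Zfp219 (9.40 and 12), Klf3 (9.90 and 8.36), Klf16 (9.21 and 7.74), Sp1 (8.72 and 6.64), Sp4 (8.39 and 6.58) and Zfp341 (7.55 and 3.96) were also bound in both. Weaker in WT were Zfp281 (4.71 and 7.74), Zfp467 (4.50 and 4.53), Klf13 (4.59 and 5.68) and Egr1 (3.8 and 4.53). Sp2 had a fold of 4.07 (rank 5107) in WT and 11.7 (rank 323) in ΔCTCF, but the summits of these overlapping peaks lay apart, 55 bp upstream of a start in WT and 238 bp downstream in ΔCTCF. Summits also lay upstream in WT and downstream in ΔCTCF at Patz1 (222 and 186 bp), Sp1 (82 and 307 bp) and Klf3 (220 and 147 bp). At Klf13 the peaks of the 2 lists did not overlap each other, and at Klf10 and Sp4 the strongest peak was a different one in each list, each of them shared. Vezf1 and Klf6 had a peak in WT alone (3.89 and 4.85), and Zfp148, Klf7 and Klf9 in ΔCTCF alone (4.62, 6.74 and 6.06). Zfp263, Klf5 and Wt1 had none.

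Genes of cohesin and its regulators were bound in 9 of 17 cases in WT, 7 in ΔCTCF and 5 in both. Those in both were Smc3 (4.71 in WT and 3.78 in ΔCTCF), Stag1 (7.35 and 6.27), Wapl, the release factor (4.1 and 4.15), Pds5b (6.68 and 4.98) and Rad21. At Rad21 the peaks did not overlap. WT had one 501 bp downstream of a start with a fold of 4.09, and ΔCTCF one 84 bp upstream with 11.2 (rank 383, chromosome 15, 51991679 to 51991999). In WT alone were Stag2 (4.50), Pds5a (6.14), Esco1 (4.09) and Sgo1 (5.32), and in ΔCTCF alone Mau2, part of the loader (4.65), and Esco2 (6.58). A CTCF peak of WT lay under the MAZ peaks of Stag1, Pds5b and Esco1. The other 6 (Smc1a, Nipbl, Cdca5, Hdac8, Espl1 and Pttg1) had none in either MAZ list.

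Of 20 genes of pluripotency factors 10 were bound in WT, and 8 of these in ΔCTCF, with none in ΔCTCF alone. Klf4 led (14.9 and 18.6), and Pou5f1, which encodes OCT4, had 6.75 and 7.35, Nanog 4.05 and 5.36, Klf2 5.56 and 7.65, Tbx3 5.17 and 5.80, Nr5a2 6.14 and 5.80, Sall4 6.37 and 5.36, and Sox2 4.54 and 4.1, the last from 2 peaks that did not overlap, of which that of ΔCTCF was shared with a weaker WT peak. Lin28a (6.6) and Fgf4 (3.81) had a peak in WT alone. No summit lay within 1 kb of a start of Klf5, Esrrb, Tfcp2l1, Prdm14, Zfp42, Dppa3, Dppa4, Utf1, Nr0b1 or Tdgf1. In the MYC network 9 of 13 genes were bound in each list and 6 in both. Mnt, a MYC antagonist, was among the strongest sites of all with folds of 16.0 and 22.5 (ranks 30 and 20). Myc had 7.77 and 4.25, Mycn 5.32 and 7.30, Mycl 5.90 and 5.99, Mxd3 7.67 and 6.76, and Mlxip 4.50 and 7.35. Mxd1 (4.09), Mxi1 (4.50) and Mlx (4.59) were bound in WT alone, Max (5.53), Mxd4 (4.1) and Mga (5.03) in ΔCTCF alone, and Mlxipl in neither.

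**Figure D5:**
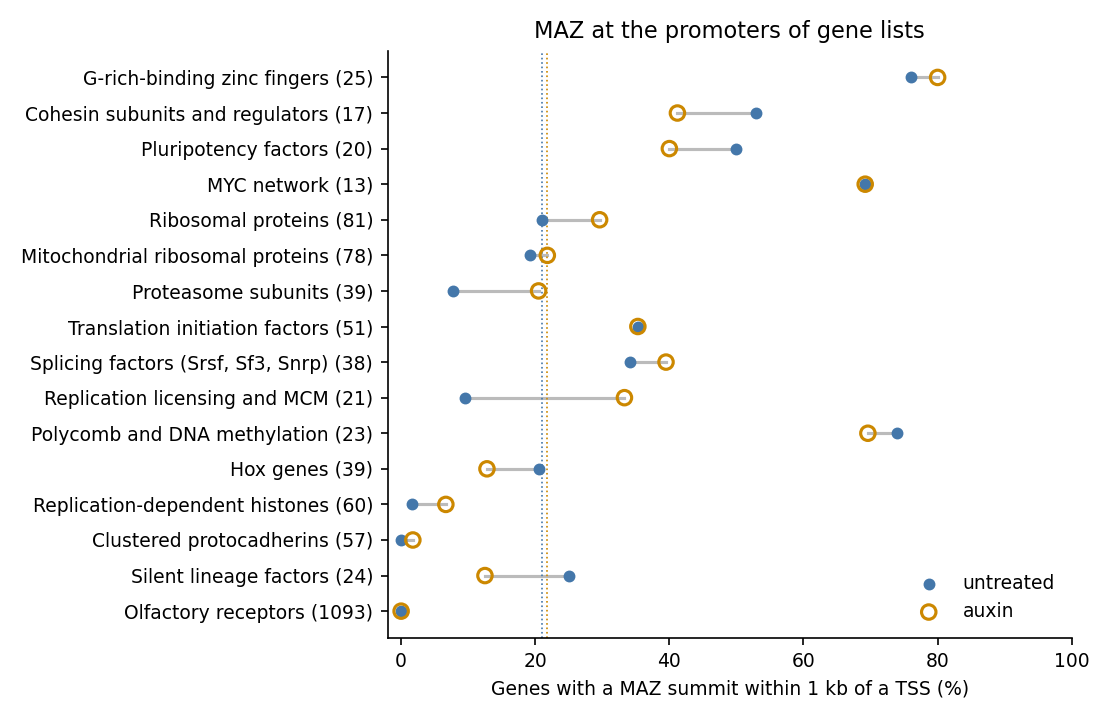
Share of the genes of each list (number of genes in brackets) with a MAZ summit within 1 kb of a TSS (%, horizontal axis) in WT (filled) and ΔCTCF (open). The dotted lines are the shares over all protein-coding genes (21.0% in WT and 21.7% in ΔCTCF). Zinc finger, Polycomb and MYC network genes lie far to the right of the lines in both lists, and olfactory receptor genes lie at 0. Cohesin, pluripotency, splicing and translation initiation factor genes also lie to the right in both.

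Polycomb and DNA methylation genes were also bound well above the background, which was 21.0% in WT and 21.7% in ΔCTCF. The counts were 17 of 23 in WT, 16 in ΔCTCF and 14 in both. Splicing factor genes numbered 13 of 38 in WT, and all 13 were bound in ΔCTCF, with Srsf3 and Snrpa1 in addition there. Translation initiation factor genes were bound in 18 of 51 cases in each list, 12 in both. Replication licensing genes were bound in 2 of 21 cases in WT (Mcm6 and Orc4, 9.52%) and 7 in ΔCTCF (33.3%). Mcm2, Cdt1, Gins1, Gins2 and Gins4 were bound in ΔCTCF alone. Proteasome genes were bound in 3 of 39 cases in WT (7.69%) and 8 in ΔCTCF (20.5%). Of these, 6 were in ΔCTCF alone and 1, Psmd8, in WT alone. Ribosomal protein genes were bound in 17 of 81 cases in WT (21%) and 24 in ΔCTCF (29.6%). Of these, 9 were in ΔCTCF alone and 2 (Rpl5 and Rpsa) in WT alone. Mitochondrial ribosomal protein genes were bound in 15 of 78 cases in WT (19.2%) and 17 in ΔCTCF (21.8%). Of these, 9 were in ΔCTCF alone and 7 in WT alone. Replication-dependent histone genes were bound in 1 of 60 cases in WT and 4 in ΔCTCF, with none in both. Hox genes were bound in 8 of 39 cases in WT (20.5%) and 5 in ΔCTCF (12.8%). Hoxa3, Hoxa4, Hoxa13 and Hoxd13 were bound in WT alone and Hoxd11 in ΔCTCF alone. Lineage factor genes listed as silent, unchecked here, were bound in 6 of 24 cases in WT (25%) and 3 in ΔCTCF (12.5%). Gata4, Pax7, Cdx2 and Eomes were bound in WT alone and T, which encodes brachyury, in ΔCTCF alone (4.26). Shares near the background were those of Hox, ribosomal protein and lineage factor genes in WT, and of proteasome genes in ΔCTCF. Mitochondrial ribosomal protein genes were near it in both lists. Of 57 clustered protocadherin genes 1 was bound, in ΔCTCF, and of 1093 olfactory receptor genes none in either list. The genes named in this paragraph were picked after their values were seen.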

How the data were processed

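ChIP-seq of MAZ, CTCF and RAD21 was performed by the authors with Drosophila chromatin as a spike-in. Reads were mapped by them to mm10 with Bowtie 2, filtered and freed of duplicates with SAMtools, and peaks were called with MACS per library. Their methods cite MACS 1 with the defaults of macs2, and an input control is not given in the sources used here. The series has 20 samples, of which 12 had a peak list, and 10 of these lists were used. The other 8 samples, among them the other MAZ sample of each group, were not analysed here.

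The fold enrichment deposited for each peak is the ratio of its summit pileup to the local background, each with 1 added. The −log10 p and −log10 q deposited beside it are those of MACS. Both MAZ lists start at the caller's limit, with a smallest −log10 q of 1.32 in WT and 1.31 in ΔCTCF. Solving the deposited fold and −log10 p for a whole-number pileup gave the background, and matched the deposited −log10 p to within 0.000155 in both MAZ lists. The lowest background over the narrowest peak width served as a depth index (0.0194 for MAZ WT and 0.00733 for MAZ ΔCTCF), an estimate and not a read total. This recovery was tested on simulated data.

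Peaks were compared by overlap of at least 1 bp, and the function differed from bedtools 2.31.1 for 0 peaks over 90 pairs of lists. Positions came from the GENCODE basic annotation (M21) and GRCm38. Words were sought within 50 bp of a summit on both strands. Shares carry Wilson 95% intervals, differences Newcombe intervals (statsmodels 0.14.6) and pooled odds ratios Mantel-Haenszel intervals, with no test, since each group had 1 list. Intervals cover counting error only.

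The sites named were the 8 of highest fold in each class (shared sites by the lowest sum of ranks) that overlapped no peak of the knockout lists. Unshared sites also had no peak of the other MAZ list within 500 bp, and 1 of the ΔCTCF-only sites is not reported here by name. To these were added the 5 shared sites whose rank rose most and the 5 whose rank fell most among those above the median fold of both lists, and the members of the zinc finger, cohesin, pluripotency and MYC lists. Members and gene lists were chosen with earlier results of these data known.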

Additional observations from a re-analysis of the deposited data

How the results depend on the processing

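No paired analysis was possible because only 1 MAZ peak list came with each group, and leaving out replicates was not possible either. Under all settings tried, the order of the classes held for the promoter share, the CTCF share, both RAD21 shares and the MAZ core, and WT peaks with CTCF were called less often than those without. The share of peaks called in the other list was higher for WT than for ΔCTCF as reported. The order turned with a −log10 q of at least 5 (62.8% and 64.8%), and the shares were close with the 4000 strongest peaks (61.8% and 62%). This order follows the lengths of the lists, so these settings do not test it. Of the values recomputed under other settings, 93 stayed within the interval or limit of the value reported and 49 moved beyond it. The 93 include values that a setting could not change, such as the numbers of peaks under another overlap rule. The gene list counts at 2.5 kb all stayed within 1.5 times those at 1 kb.

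With a reciprocal overlap of at least 50%, 56.4% of WT peaks were called in ΔCTCF (46.8% with and 57.2% without CTCF) and 52.3% of ΔCTCF peaks in WT, and the promoter share was 72.6% for WT-only and 66.5% for ΔCTCF-only sites. With a gap of up to 500 bp the shares called were 69.8% (70.7% without CTCF) and 65.2%, and the ΔCTCF-only promoter share 59.3%. With a −log10 q of at least 5 they were 62.8% (63.7% without CTCF) and 64.8%, the promoter shares 71.1% (WT-only) and 64.0% (ΔCTCF-only), RAD21 of ΔCTCF 27.1% and 28.5%, and the MAZ core 35.4% at shared and 26.2% at ΔCTCF-only sites. With the 4000 strongest peaks of each list, 61.8% of WT peaks were called (52.1% with and 62.6% without CTCF), the promoter shares were 83.1%, 75.2% and 65.9% for shared, WT-only and ΔCTCF-only sites, the core shares 37.1%, 33.1% and 28.6%, and RAD21 of ΔCTCF 36.6% at shared and 30.5% at ΔCTCF-only sites.

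With WT scaled to the depth of ΔCTCF, 71.6% of WT peaks (61.3% with and 72.4% without CTCF) and 55.0% of ΔCTCF peaks were called, the WT-only core share was 32.3%, the ΔCTCF-only promoter share 64.0%, and the median log2 ratio of folds 0.24. That ratio was 0.61 from pileup over background without a pseudocount, a setting chosen after seeing the data. Promoters within 2.5 kb gave 85.0%, 74.3% and 67.4%, core windows of 100 bp to either side 48.1%, 43.5% and 34.5%, and RAD21 of ΔCTCF at the depth of WT 26.7%, 20.1% and 20.3%. Leaving out regions of the knockout lists moved no value beyond its limit. The settings differ by construction in the number of peaks, the width of windows or the overlap asked for, and no other cause was tested. An unshared peak is one not called in the other list at that list's depth, and with the peak list of 1 library per group an effect of auxin and a difference between libraries cannot be told apart.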
